A study of Mus musculus with 24 samples.

Results

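RNA of Kit-Sca1- leukaemia cells was compared with RNA of MacHigh leukaemia cells, each sorted from spleens of mice with acute myeloid leukaemia. The comparison holds 10 of the 24 libraries of the series, 5 of Kit-Sca1- cells (sorted as MacLowKit-Sca1-: low Mac-1, no Kit, no Sca-1) and 5 of MacHigh cells (sorted for high Mac-1, with no gate on Kit or Sca-1 given). The columns of each group were taken by the sorted population in their names. All groups carried the same genotype, NRASG12V/Mll-AF9: an active form of the small GTPase NRAS and a fusion of the histone methyltransferase MLL with AF9. The strain of all samples was (FVB/n X C57/BL/6J) F1. The promoters that drive the alleles, the age of the mice and the treatment, if any, are not given in the sources used here. The other libraries were 5 of Kit+Sca1- cells, 4 of Kit+Sca1+ cells, both also MacLow, and 5 of unsorted cells. They entered the fit to share the estimate of the spread. The labels do not state whether replicates are from different animals, and p-values here reflect only sample-to-sample spread, which may be technical.

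Mac-1 is the integrin alpha M beta 2, a receptor for complement fragments and for fibrinogen, and its surface level rises as myeloid cells mature. Kit is the receptor of stem cell factor and Sca-1 (gene Ly6a) marks mouse blood stem cells. In MLL-AF9 leukaemia of mice, cells with high Mac-1 are often taken as the more mature bulk. Which of the sorted cells can pass on the disease is not shown by these data. The spleen also holds red pulp macrophages, which clear aged red blood cells, together with dendritic cells and lymphocytes.

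The values are FPKM, which divide a gene's fragments by its length and by the fragments mapped in that library, and a value of 0.001 stands where other tables hold 0. The FPKM summed to 490183 to 644381 in Kit-Sca1- libraries and to 555631 to 636313 in MacHigh libraries. Between 10590 and 10722 rows were at 1 FPKM or more in Kit-Sca1- libraries and between 10763 and 10874 in MacHigh libraries. The number of reads behind each value is unknown, as only FPKM were analysed. Relative to MacHigh replicate 1, the depth estimated from low values was 0.895 to 2.06 in Kit-Sca1- and 0.933 to 1.58 in MacHigh libraries. The correlation of log2 values between libraries was 0.949 to 0.9702 within Kit-Sca1-, 0.956 to 0.9721 within MacHigh and 0.8658 to 0.9459 between the groups.

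The genes of the 3 sorted surface proteins were all lower in Kit-Sca1- cells. Itgam, which encodes the alpha chain of Mac-1 (chromosome 7, 128062640 to 128118491, GRCm38), was at 203, 296, 382, 158 and 295 FPKM in the 5 Kit-Sca1- libraries, against 631, 693, 582, 660 and 600 FPKM in the 5 MacHigh libraries. The groups did not overlap, and the Kit-Sca1- libraries differed more among themselves than the MacHigh libraries did. The difference in mean log2(FPKM + 1) was -1.31 (exact two-sided permutation test, p = 0.00794, the smallest that 5 against 5 can give, and 0.0119 adjusted over 3 genes). This test, used for all 3 genes, takes the libraries as unpaired. With libraries paired by the prefix of the sample name, the 4 pairs allow no p below 0.125, and none of the 3 genes passes. Itgam transcripts were thus lower but not absent. Kit-Sca1- cells were sorted for low or no surface protein of these 3 genes, so the tests only check the sort. Kit was at 0.643, 0.572, 0.744, 0.487 and 0.895 FPKM in Kit-Sca1- libraries, against 7.17, 5.23, 6.03, 5.29 and 5.22 FPKM in MacHigh libraries (log2 difference -2.02, exact p = 0.00794, adjusted 0.0119). Ly6a was at 1.02 ± 0.583 FPKM in Kit-Sca1- and 2.35 ± 0.764 FPKM in MacHigh libraries (SD, n = 5 each), and the groups overlapped (-0.75, exact p = 0.0159, adjusted 0.0159). Itgb2, the beta chain that pairs with Itgam, was lower as well (338 ± 79.4 FPKM in Kit-Sca1- against 646 ± 35.4 FPKM in MacHigh, log2 difference -0.96 ± 0.21 SE). Of 17 leukocyte integrin genes tested, 10 were lower and 2 higher. The largest fall among them was in Itgax, the CD11c chain of dendritic cells and macrophages (-2.71 ± 0.34), and the largest rise in Itga1, a chain of a collagen receptor (1.15 ± 0.18).

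Of 11597 genes tested with limma, 2843 (24.5%) were higher and 3040 (26.2%) lower in Kit-Sca1- than in MacHigh cells at an adjusted p under 0.05. A member of a gene list is called higher or lower by this rule below, and those shares are what its counts are to be read against. Members of all lists were chosen with earlier results of these data known, so the counts are descriptions and not tests. The median log2 difference over all genes tested was -0.02. When every library was scaled to 1 common FPKM total, 3058 were higher and 2165 lower (58.5% of the calls were higher, against 48.3% unscaled). Differences of 1 or more on the log2 scale were fewer, 318 higher (2.74%) and 708 lower (6.11%). The 5 values of each group did not overlap in 1888 genes that were higher (16.3%) and 2247 that were lower (19.4%) in Kit-Sca1- cells. Differences below are of log2(FPKM + 1) with their standard errors (SE), a scale that compresses changes of weakly expressed genes. Adjusted p-values are Benjamini-Hochberg values of limma over all genes tested. They come from a fit that takes the libraries as unpaired, unless a block is named. Levels are means ± SD over 5 libraries per group. In bulk RNA, fewer cells of a type and less RNA per cell cannot be told apart.

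**Figure D1:**
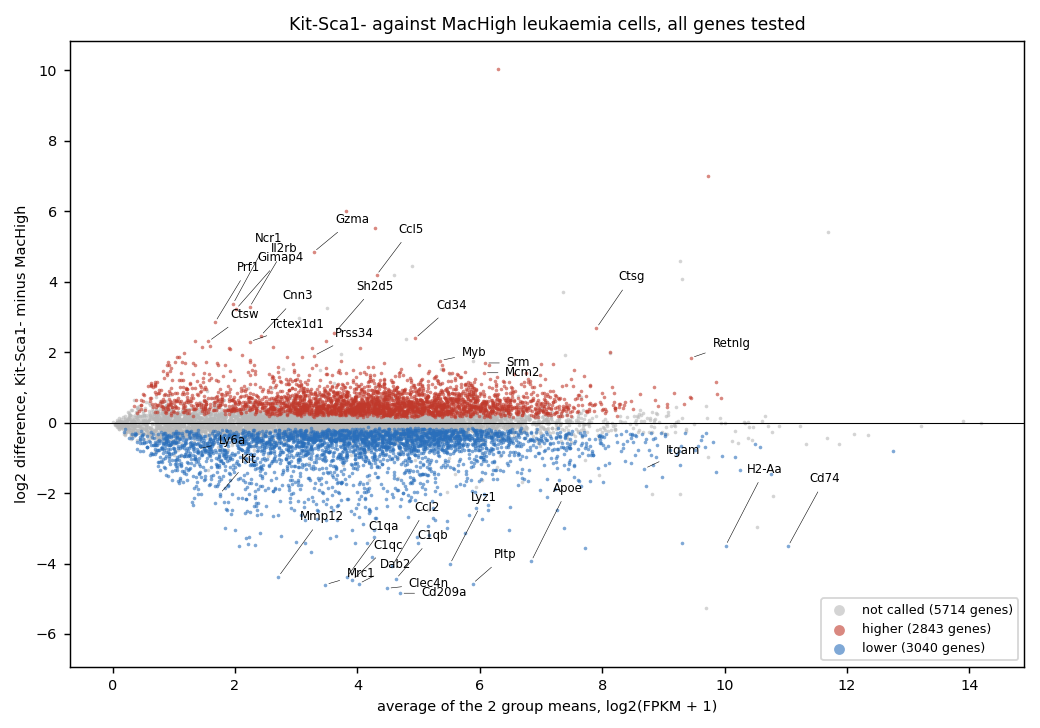
Log2 difference between Kit-Sca1- and MacHigh cells (vertical axis) against the average level of the group means (horizontal axis, log2(FPKM + 1)), with 1 point per gene tested. Red points (2843 genes) were called higher and blue points (3040 genes) lower, and grey points were not called. The labelled genes with the largest rises include Gzma (4.84) and Ctsg (2.69), and those with the largest falls Cd209a (-4.84) and Clec4n (-4.70). The unlabelled points above Gzma are rows of small nucleolar RNAs and microRNAs, which are not named here.

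The genes that present antigen on MHC class II were the list with the lowest median. MHC class II molecules are built in antigen presenting cells from an alpha and a beta chain, held together by the invariant chain until a peptide is loaded in the endosome. All 12 genes tested were lower in Kit-Sca1- cells, with no overlap between the groups in any of them and a median log2 difference of -2.66. Cd74, the invariant chain, was at 599, 361, 340, 679 and 1254 FPKM in Kit-Sca1- libraries, against 5016, 8081, 4695, 6244 and 10128 FPKM in MacHigh libraries. The highest Kit-Sca1- library, replicate 5, lay below every MacHigh library, and the log2 difference was -3.51 ± 0.39 (adjusted p = 3.34e-07). H2-Aa, the alpha chain of I-A (chromosome 17, 34282744 to 34287823), was at 299, 175, 150, 359 and 629 FPKM in Kit-Sca1- libraries, against 2431, 3782, 2283, 3227 and 4857 FPKM in MacHigh libraries (-3.50 ± 0.40). Its partner H2-Ab1 (-3.42) and the I-E beta chain H2-Eb1 (-3.55) changed by a like amount. Ciita, the coactivator without which these genes are not transcribed, averaged 5.27 ± 2.84 FPKM in Kit-Sca1- and 57.9 ± 22.9 FPKM in MacHigh libraries (-3.25 ± 0.32, adjusted p = 6.62e-08). The peptide loading chains H2-DMb1 (-2.61 ± 0.22) and H2-DMb2 (-2.48 ± 0.22) and the protease Ctss, which trims the invariant chain (-1.80 ± 0.26), fell with them. Reads of such related chains may have been split between them in the counting, which makes single values of this family uncertain. The summed level of the 12 genes was 937 to 2825 FPKM in Kit-Sca1- and 9914 to 20548 FPKM in MacHigh libraries.

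Promoters of class II genes carry a block of elements before the start of the gene that ends in a Y box, an inverted CCAAT element bound by NF-Y. RefSeq promoter sequences on GRCm38.p6 were found for 9 of the 12 genes. In 4 of these 9 (H2-Aa, H2-Eb1, H2-Eb2 and H2-Oa) the 250 bases before the start, read on both strands, held CTGATTGG, against 1258 of all 32851 promoter entries (3.83%). The list was counted by gene (9 genes with 10 entries) and the background by entry (27025 genes with 32851 entries), so the shares differ in unit. The motif was chosen after these sequences had been seen, so the share is a description. The promoters of H2-Aa (minus strand, chr17:34287824-34288073) and H2-Eb1 (plus strand, chr17:34305617-34305866) are shown since both genes were about equally reduced, each 5′ to 3′ along its gene and with the motif in capitals, 51 bases before the start in H2-Aa and 62 in H2-Eb1.
H2-Aa: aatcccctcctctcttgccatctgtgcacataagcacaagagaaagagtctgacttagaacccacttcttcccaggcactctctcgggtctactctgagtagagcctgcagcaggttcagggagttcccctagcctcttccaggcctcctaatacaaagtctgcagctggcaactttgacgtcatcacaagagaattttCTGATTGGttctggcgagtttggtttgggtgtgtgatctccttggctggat
H2-Eb1: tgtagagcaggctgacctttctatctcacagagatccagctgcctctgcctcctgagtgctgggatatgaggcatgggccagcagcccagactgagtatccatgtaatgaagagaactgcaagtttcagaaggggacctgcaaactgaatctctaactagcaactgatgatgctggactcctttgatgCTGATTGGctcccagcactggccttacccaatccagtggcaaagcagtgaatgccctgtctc

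Class I presentation changed less. Of 19 class I and immunoproteasome genes tested, 8 were lower and none higher (median -0.28). B2m, the light chain shared by class I molecules, was at 1166 ± 80.9 FPKM in Kit-Sca1- and 1794 ± 257 FPKM in MacHigh libraries (-0.61 ± 0.12), and H2-M3, which presents formylated peptides, fell by 1.00 ± 0.17 on the log2 scale. The immunoproteasome subunit Psmb8 was at 189 ± 16.4 FPKM in Kit-Sca1- and 201 ± 35.4 FPKM in MacHigh libraries (adjusted p = 0.635).

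Genes of macrophages and dendritic cells made up most of the largest falls. The 12 largest by the rule for named genes were Cd209a, Clec4n, Mrc1, Dab2, Pltp, C1qc, C1qb, C1qa, Mmp12, Ccl2, Lyz1 and Apoe. Cd209a, a lectin of monocyte-derived dendritic cells, was at 1.02, 1.76, 5.27, 1.94 and 8.99 FPKM in Kit-Sca1- libraries, against 35.6, 228, 108, 89.8 and 239 FPKM in MacHigh libraries. Both groups spread widely without overlap (-4.84 ± 0.44, adjusted p = 2.45e-08). Mrc1, the mannose receptor, was at 0.675, 1.03, 1.61, 0.551 and 1.55 FPKM in Kit-Sca1- libraries, against 16.4, 123, 42.5, 52.4 and 57.5 FPKM in MacHigh libraries (-4.60 ± 0.35). The 3 chains of C1q, the recognition part of the complement cascade that macrophages make, fell together. C1qa was at 1.79, 2.23, 2.43, 1.01 and 2.91 FPKM in Kit-Sca1- libraries, against 37.6, 91.9, 44.8, 84.8 and 65.2 FPKM in MacHigh libraries (-4.37 ± 0.28, adjusted p = 4.22e-10). C1qb (-4.43 ± 0.33) and C1qc (-4.48 ± 0.29) were as low in Kit-Sca1- cells. Pltp, which transfers phospholipids between lipoproteins, was at 12.1 ± 10.1 FPKM in Kit-Sca1- and 265 ± 70.5 FPKM in MacHigh libraries (-4.57 ± 0.38), and Dab2, an adaptor of endocytosis, at 2.22 ± 0.367 FPKM in Kit-Sca1- and 80.8 ± 32 FPKM in MacHigh libraries (-4.57 ± 0.26). Apoe, an apolipoprotein, fell by 3.93 ± 0.37 on the log2 scale and Mmp12, macrophage elastase, by 4.37 ± 0.32. Lyz1 (-4.02 ± 0.53) is a near copy of Lyz2, lysozyme M, whose row could not be compared, so its value is uncertain.

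By list, 25 of 30 monocyte and macrophage genes tested were lower and 2 higher (median -1.52), and 17 of 19 red pulp macrophage genes were lower and none higher (median -2.10). Csf1r, the receptor for M-CSF on which monocytes and macrophages depend, was at 60.6, 90.3, 146, 91.1 and 151 FPKM in Kit-Sca1- libraries, against 267, 468, 314, 367 and 422 FPKM in MacHigh libraries (-1.81 ± 0.23, adjusted p = 1.29e-06). Its transcripts were thus still abundant in Kit-Sca1- cells. Ccr2, the receptor that brings inflammatory monocytes to tissue, was at 97.6 ± 10.2 FPKM in Kit-Sca1- and 218 ± 27.8 FPKM in MacHigh libraries (-1.15 ± 0.13), and Cx3cr1, the fractalkine receptor, at 29.9 ± 7.41 FPKM in Kit-Sca1- and 96.4 ± 26.5 FPKM in MacHigh libraries (-1.65 ± 0.23). The scavenger receptor Msr1 (-2.80 ± 0.35), the Fc receptor Fcgr4 (-1.30 ± 0.22) and fibronectin Fn1 (-1.59 ± 0.33) were lower too. The 2 genes that were higher, Ly6c2 (889 ± 122 FPKM in Kit-Sca1- against 553 ± 112 FPKM in MacHigh, 0.70 ± 0.25) and Ly6c1 (1.44 ± 0.56), encode the monocyte surface protein Ly-6C and are near-identical copies, so the split of reads between them is uncertain. The call of Ly6c2 was lost without Kit-Sca1- replicate 3 or 5 or MacHigh replicate 4 or 5. The call of Ly6c1 (adjusted p = 0.0373) was lost with sample name prefixes as a block (adjusted p = 0.0569) and without Kit-Sca1- replicate 2, 3 or 4 or MacHigh replicate 2 or 5. Irf8, a transcription factor of monocyte and dendritic cell development, was at 214, 201, 177, 283 and 251 FPKM in Kit-Sca1- libraries, against 193, 229, 199, 173 and 275 FPKM in MacHigh libraries, with wide overlap (0.07 ± 0.29, adjusted p = 0.851, and -0.01 without Kit-Sca1- replicate 4).

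Receptors of these cells followed. C-type lectin receptors, which bind sugars of microbes and of dying cells, were lower in 16 of 21 genes tested and higher in none (median -1.45). Clec4n, which encodes Dectin-2, was at 1.88, 3.01, 5.01, 0.926 and 7.24 FPKM in Kit-Sca1- libraries, against 73.4, 117, 79.1, 127 and 146 FPKM in MacHigh libraries (-4.70 ± 0.34). Clec10a (-3.26 ± 0.24) and its near copy Mgl2 (-3.21 ± 0.36) were lower, while Clec12a, an inhibitory lectin of myeloid cells, was at 181 ± 17.6 FPKM in Kit-Sca1- and 179 ± 24.9 FPKM in MacHigh libraries (adjusted p = 0.911). Fc and scavenger receptors were lower in 14 of 18 genes and higher in none (median -1.44), among them the inhibitory Fc receptor Fcgr2b (-1.61 ± 0.12) and the low affinity IgE receptor Fcer2a (-3.46 ± 0.25). Of 17 conventional dendritic cell genes, 12 were lower and 1 higher (median -1.76). Their transcription factor Irf4 was at 2.43 ± 1.18 FPKM in Kit-Sca1- and 21.7 ± 5.19 FPKM in MacHigh libraries (-2.77 ± 0.20). Of 17 complement genes, C1q included, 11 were lower, and the regulator Cd55, a shield of host cells, was the 1 that was higher (1.02 ± 0.22). The median of this list, -0.96, was the value of Itgb2, a chain of the sorted Mac-1 that is counted in it.

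In a list of 26 myeloid transcription factors that was put together after the values had been seen, 16 were lower and 2 higher (median -0.91). Maf was at 0.815, 1.15, 2.3, 0.618 and 3.13 FPKM in Kit-Sca1- libraries, against 14.3, 60, 25.7, 28.8 and 39.5 FPKM in MacHigh libraries (-3.69 ± 0.30, adjusted p = 7.62e-09). Spic, which red pulp macrophages require, was at 0.246 ± 0.193 FPKM in Kit-Sca1- and 9.22 ± 3.35 FPKM in MacHigh libraries (-2.98 ± 0.20). The 2 that were higher were Gata2, a factor of progenitors, mast cells and basophils (1.56 ± 0.29), and Tfec (0.62 ± 0.23). The call of Tfec was lost with no filter and without Kit-Sca1- replicate 3 or 4 or MacHigh replicate 4 or 5. Cebpa, which opens the myeloid programme, was at 62 ± 3.41 FPKM in Kit-Sca1- and 75.6 ± 4.96 FPKM in MacHigh libraries and did not pass (adjusted p = 0.0801, and 0.00538 with only these groups in the fit). Gfi1, a transcriptional repressor that granulocyte development requires, was at 15 ± 2.29 FPKM in Kit-Sca1- and 13.7 ± 5.8 FPKM in MacHigh libraries (adjusted p = 0.553).

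**Figure D2:**
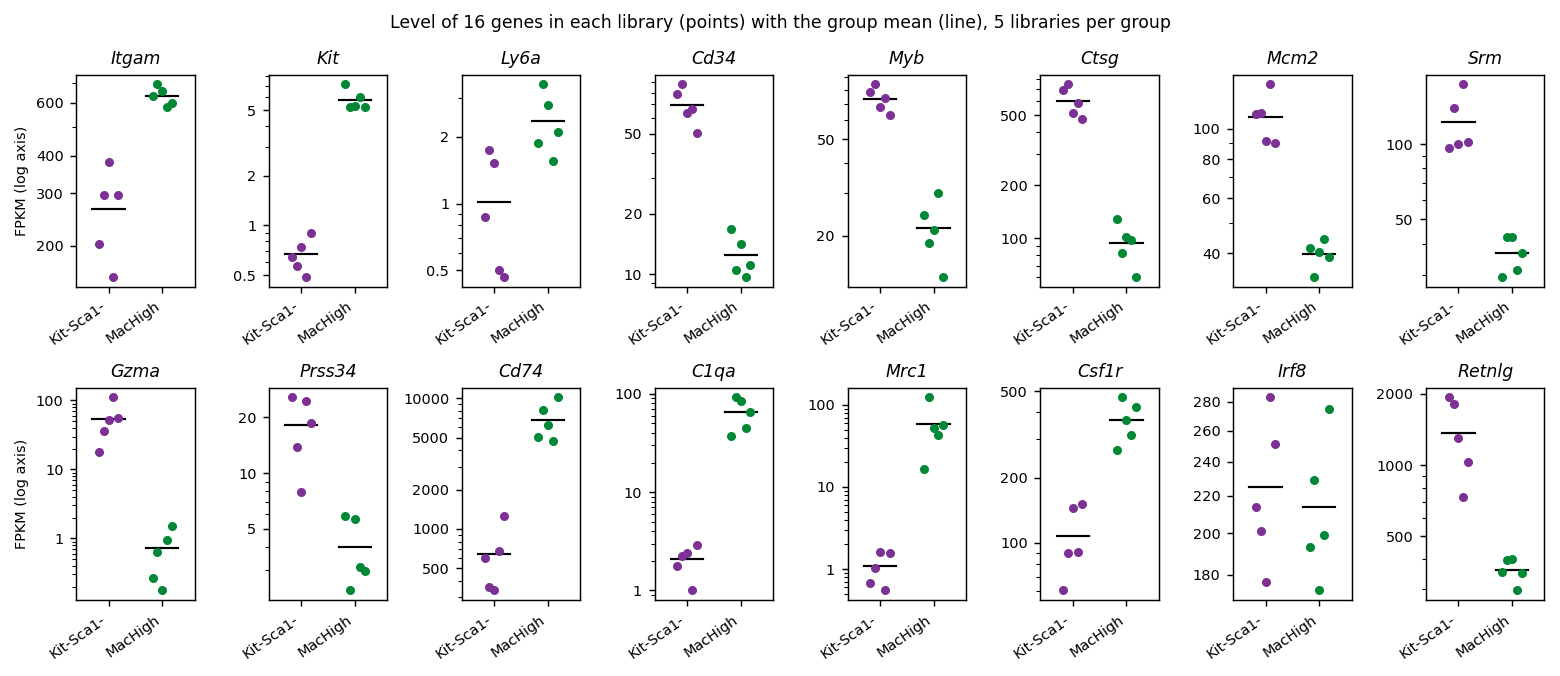
FPKM of 16 genes in each of the 5 Kit-Sca1- libraries (left in each panel) and 5 MacHigh libraries (right), on log axes, with a line at the group mean. Cd34, Myb, Ctsg, Mcm2, Srm, Gzma, Prss34 and Retnlg lie higher and Itgam, Kit, Cd74, C1qa, Mrc1 and Csf1r lower in every Kit-Sca1- library than in any MacHigh library, whereas the groups overlap for Ly6a and Irf8.

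Genes that sense microbes and cytokines were lower in Kit-Sca1- cells. Toll-like receptor and inflammasome genes fell in 21 of 27 tested and rose in none (median -0.88). Tlr3, the receptor for double-stranded RNA, was at 4.16 ± 2.27 FPKM in Kit-Sca1- and 21.8 ± 5.84 FPKM in MacHigh libraries (-2.22 ± 0.33), with Tlr1 (-2.01 ± 0.25) and Tlr7, a receptor for single-stranded RNA (-1.93 ± 0.29), close behind. The inflammasome adaptor Pycard was at 74.2 ± 6.8 FPKM in Kit-Sca1- and 79.6 ± 8.81 FPKM in MacHigh libraries (adjusted p = 0.411). Of 28 cytokine receptor genes, 19 were lower and none was higher (median -0.71), with Ifngr1, a chain of the interferon gamma receptor (-1.31 ± 0.14), and Il10ra, of the interleukin 10 receptor (-1.77 ± 0.30), among them. Csf3r, the G-CSF receptor, was at 52.1 ± 22.8 FPKM in Kit-Sca1- and 47.4 ± 15.8 FPKM in MacHigh libraries (adjusted p = 0.822). Of 33 interferon response genes, 23 were lower and 1 higher (median -0.83), including Irf7, which amplifies the response (-1.19 ± 0.25), and the GTPase Irgm1 (-1.16 ± 0.13). The 1 that was higher was Gbp3 (0.71 ± 0.19).

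Inflammatory mediator and chemokine receptor genes were mostly lower in Kit-Sca1- cells. Ccl2, the chemokine that recruits monocytes, was at 4.48, 2.34, 6.95, 3.77 and 6.66 FPKM in Kit-Sca1- libraries, against 70.8, 127, 58.9, 125 and 97.7 FPKM in MacHigh libraries (-4.06 ± 0.35), and the related Ccl7 fell by 3.47 ± 0.32 on the log2 scale. In all, 11 of 18 inflammatory mediator genes were lower and none higher (median -0.86). Tnf was at 23.7 ± 10.8 FPKM in Kit-Sca1- and 28.7 ± 6.71 FPKM in MacHigh libraries (adjusted p = 0.277). Among 14 chemokine receptor genes 10 were lower and 3 higher (median -1.10). Cmklr1, the chemerin receptor, was lower (-3.21 ± 0.20). Cxcr4, which holds cells in the marrow, was at 170 ± 42 FPKM in Kit-Sca1- and 96.1 ± 25.1 FPKM in MacHigh libraries (0.83 ± 0.21), and Cxcr2, a receptor of neutrophils, was higher as well (adjusted p = 0.000781).

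All libraries carried the same NRAS allele, and genes that the RAS-ERK pathway induces differed between the sorted cells. Of 19 such genes, 9 were lower and 3 higher (median -0.56). Dusp6, a phosphatase that inactivates ERK and is induced by it, was at 48.4, 73.3, 106, 49.8 and 68.9 FPKM in Kit-Sca1- libraries, against 147, 256, 137, 177 and 162 FPKM in MacHigh libraries (-1.36 ± 0.19, adjusted p = 4.75e-06). The groups did not overlap. The ERK target Etv5 (-1.07 ± 0.17) and Egr1 (-1.40 ± 0.42) were lower as well, while Epha2 (1.05 ± 0.17), Spry2 (0.65 ± 0.15) and Myc (0.92 ± 0.22) were higher. Immediate early and stress genes, which respond to stimuli and to cell handling, were lower in 10 of 22 and higher in 1 (median -0.92). Atf3 (-2.15 ± 0.26) and Egr2 (-1.78 ± 0.17) passed, whereas Fos (50.7 ± 37.6 FPKM in Kit-Sca1- against 115 ± 74.1 FPKM in MacHigh) did not (-1.26 on the log2 scale, adjusted p = 0.113). Fos did pass with sample name prefixes as a block (adjusted p = 9.53e-05), with the title number as a block (adjusted p = 0.0239) and without Kit-Sca1- replicate 5 (adjusted p = 0.0495).

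Degradation in lysosomes and the handling of iron are main tasks of macrophages. Lysosome and phagocytosis genes were lower in 21 of 27 tested and higher in none (median -0.87). Lgmn, a protease that processes antigens and cathepsins, was at 30.4 ± 6.77 FPKM in Kit-Sca1- and 157 ± 31.4 FPKM in MacHigh libraries (-2.34 ± 0.28). Cathepsin B, Ctsb, was lower (-1.66 ± 0.15), and cathepsin Z, Ctsz, was at 438 ± 47.9 FPKM in Kit-Sca1- and 478 ± 46.3 FPKM in MacHigh libraries (adjusted p = 0.369). NADPH oxidase genes, whose enzyme makes the respiratory burst, were lower in 5 of 8 (median -0.43). Of 22 iron and heme genes, 11 were lower and 3 higher (median -0.30). Hmox1, which breaks down heme, was at 46.4, 51, 72, 43.3 and 75.4 FPKM in Kit-Sca1- libraries, against 473, 436, 264, 539 and 624 FPKM in MacHigh libraries (-2.98 ± 0.23, adjusted p = 3.37e-09). Hfe, a regulator of iron uptake, fell by 2.16 ± 0.21 on the log2 scale. Tfrc, the transferrin receptor through which dividing cells take up iron, was at 42.9 ± 18.9 FPKM in Kit-Sca1- and 20.3 ± 5.13 FPKM in MacHigh libraries (0.97 ± 0.28, adjusted p = 0.00669), and the heme synthesis gene Alad was also higher (0.75 ± 0.22).

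Lyz2, lysozyme M, and Psap, the precursor of lysosomal saposins, could not be compared. Lyz2 was at 1703 to 5938 FPKM and Psap at 707 to 1730 FPKM in Kit-Sca1- libraries, and both were listed at 0.001 in all 5 MacHigh libraries. They were treated as missing in MacHigh cells and left out of every count that involves MacHigh cells.

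DNA replication genes were higher in Kit-Sca1- cells without exception in the list. The MCM proteins form the helicase that opens DNA, origin factors such as Cdc6 load it, and polymerases, clamp loaders and ribonucleotide reductase follow. All 34 genes tested were higher (median 1.08), and in 33 of them the groups did not overlap. Mcm2 was at 112, 112, 91.5, 139 and 90 FPKM in Kit-Sca1- libraries, against 41.7, 33.6, 44.6, 40.3 and 38.9 FPKM in MacHigh libraries (1.42 ± 0.11, adjusted p = 4.14e-09). Mcm3 (1.42 ± 0.12), Mcm6 (1.34 ± 0.12) and Mcm5 (1.18 ± 0.12), further subunits of the helicase, were higher to a like degree. For each of these subunits, every Kit-Sca1- library lay above every MacHigh library. Cdc6 was at 17.2 ± 3.82 FPKM in Kit-Sca1- and 5.96 ± 1.03 FPKM in MacHigh libraries (1.38 ± 0.13), and Pcna, the sliding clamp, at 128 ± 25.2 FPKM in Kit-Sca1- and 64.1 ± 11 FPKM in MacHigh libraries (0.98 ± 0.14). The smallest differences were those of the GINS subunits Gins3 (0.49 ± 0.12) and Gins4 (0.47 ± 0.07).

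Many replication genes are controlled by E2F factors, which bind sequences such as TTTCGCGC and TTTGGCGC. RefSeq promoters were found for 26 of the 34 genes, and 6 of them (Mcm5, Mcm6, Orc1, Pola1, Rfc3 and Uhrf1) held either sequence on either strand within 250 bases before the start, against 215 of all 32851 entries (0.654%). Here, too, the list was counted by gene (26 genes with 31 entries) and the background by entry. These motifs, too, were chosen after the sequences had been seen. The promoters of Mcm5 (plus strand, chr8:75109259-75109508) and Mcm6 (minus strand, chr1:128359706-128359955) are shown for their overlapping matches on opposite strands, with all matched bases in capitals. The matches lie 149 to 153 bases before the start in Mcm5 and 47 to 110 bases before it in Mcm6. The last 20 bases of the promoter entry were in 0 of 5 GENCODE transcripts of Mcm5 and 0 of 4 of Mcm6. For H2-Aa they were in 2 of 4 and for H2-Eb1 in 1 of 5. The distances in Mcm5 and Mcm6 thus hold only for the RefSeq start.
Mcm5: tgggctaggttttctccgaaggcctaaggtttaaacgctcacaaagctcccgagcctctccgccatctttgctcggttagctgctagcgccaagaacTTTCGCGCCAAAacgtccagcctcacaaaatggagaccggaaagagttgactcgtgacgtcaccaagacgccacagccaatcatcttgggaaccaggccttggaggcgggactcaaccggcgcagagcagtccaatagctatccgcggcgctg
Mcm6: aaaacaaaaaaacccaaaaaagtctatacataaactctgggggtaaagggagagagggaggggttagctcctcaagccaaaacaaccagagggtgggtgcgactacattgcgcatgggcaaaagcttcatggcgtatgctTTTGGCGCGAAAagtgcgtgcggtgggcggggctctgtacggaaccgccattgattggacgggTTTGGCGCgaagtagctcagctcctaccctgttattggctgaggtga

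Mitosis genes differed less than replication genes. Of 25 tested, 18 were higher and none lower (median 0.44), and only 3 had no overlap between the groups. Mad2l1, of the spindle checkpoint, was at 54.8 ± 8.84 FPKM in Kit-Sca1- and 31.1 ± 7.52 FPKM in MacHigh libraries (0.82 ± 0.13), and the checkpoint kinase Bub1 rose by 0.65 ± 0.12. Mki67, the marker of cycling cells, was at 119 ± 13.1 FPKM in Kit-Sca1- and 94.4 ± 24.8 FPKM in MacHigh libraries and missed the threshold (0.36 ± 0.15, adjusted p = 0.0535). Mki67 passed without MacHigh replicate 1 (adjusted p = 0.0395) or replicate 3 (adjusted p = 0.00754), and with the same FPKM sum, median centring or library weights. Whether the replication and mitosis lists differ from each other was not tested.

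Genes of cell growth rose with replication. Myc, the transcription factor that drives ribosome production, was at 108, 81.1, 54.7, 74 and 59.8 FPKM in Kit-Sca1- libraries, against 49.4, 45.1, 28.5, 41 and 32.1 FPKM in MacHigh libraries (0.92 ± 0.22, adjusted p = 0.00129). Of 27 Myc target and ribosome biogenesis genes, 24 were higher and none lower (median 0.94). Srm, spermidine synthase, was at 96.5, 139, 99.9, 174 and 102 FPKM in Kit-Sca1- libraries, against 29.4, 42.6, 31.3, 42.6 and 36.7 FPKM in MacHigh libraries (1.69 ± 0.20). Nucleolin, Ncl (1.24 ± 0.19), nucleophosmin, Npm1 (1.14 ± 0.19), and the ribosome assembly factor Rrs1 (1.09 ± 0.13) were higher. The proteins of the finished cytosolic ribosome were not: of 41 genes none passed in either direction (median 0.06). At an unadjusted p under 0.05 of limma, 1 was higher and 1 lower, and at an adjusted p under 0.05 quantile normalization gave 2 and median centring 1 that were higher. Many ribosomal protein genes have near-identical processed copies, and some varied widely between replicates, such as Rps25 at 52.6 ± 62.9 FPKM in Kit-Sca1- and 30.2 ± 53.4 FPKM in MacHigh libraries.

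The lists of one-carbon metabolism, tRNA synthetases and mitochondrial chaperones were put together after the values had been seen, so their counts only describe the genes chosen. Serine, glycine and one-carbon metabolism, which feeds purine and thymidylate synthesis, was higher in 14 of 17 genes tested and lower in 1 (median 1.00). Phgdh, which opens the serine pathway, was at 16.8, 11.8, 8.27, 16.8 and 7.43 FPKM in Kit-Sca1- libraries, against 2.83, 1.46, 1.94, 1.74 and 1.33 FPKM in MacHigh libraries (2.16 ± 0.26, adjusted p = 9.51e-07). The serine hydroxymethyltransferases Shmt2 (1.63 ± 0.16) and Shmt1 (1.57 ± 0.16) and the aminotransferase Psat1 (1.29 ± 0.14) followed. Aminoacyl tRNA synthetase genes were higher in 18 of 20 (median 0.57) and mitochondrial chaperone and import genes in 18 of 19 (median 0.75), with Hspd1, the mitochondrial chaperonin, at 72.9 ± 19.6 FPKM in Kit-Sca1- and 22.5 ± 5.33 FPKM in MacHigh libraries (1.64 ± 0.20). Oxidative phosphorylation genes were higher in 20 of 28 and lower in none, by smaller amounts (median 0.34), with the ATP synthase subunit Atp5b (0.73 ± 0.11) and the complex I subunit Ndufs1 (0.48 ± 0.08) among them.

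Glycolysis and cholesterol synthesis showed no common direction. Of 22 glycolysis genes, 6 were higher and 3 lower (median 0.16). The lactate transporter Slc16a1 was at 23.8 ± 6.86 FPKM in Kit-Sca1- and 6.16 ± 0.909 FPKM in MacHigh libraries (1.76 ± 0.20), while the glucose transporter Slc2a1 fell by 0.49 ± 0.09 on the log2 scale and aldolase C, Aldoc, by 1.43 ± 0.23. Of 23 cholesterol synthesis genes, 2 were higher and 1 lower (median 0.08). Fdps, farnesyl diphosphate synthase, was higher (0.84 ± 0.22) and Srebf2, the transcription factor of the pathway, lower (-0.49 ± 0.11).

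Of 23 genes of DNA methylation and polycomb complexes, in a list put together after the values had been seen, 8 were higher (34.8%, against 24.5% of all genes) and 6 lower (26.1%, against 26.2% of all genes), with a median of 0.02. The maintenance methyltransferase Dnmt1 was at 103 ± 10.7 FPKM in Kit-Sca1- and 58.3 ± 8.18 FPKM in MacHigh libraries (0.82 ± 0.09), with the chromatin remodeller Hells (1.63 ± 0.12). The de novo methyltransferase Dnmt3a was lower (-0.68 ± 0.14). Ezh2, the polycomb methyltransferase of dividing cells, was higher (0.78 ± 0.12) and its relative Ezh1 lower (-0.45 ± 0.10).

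**Figure D3:**
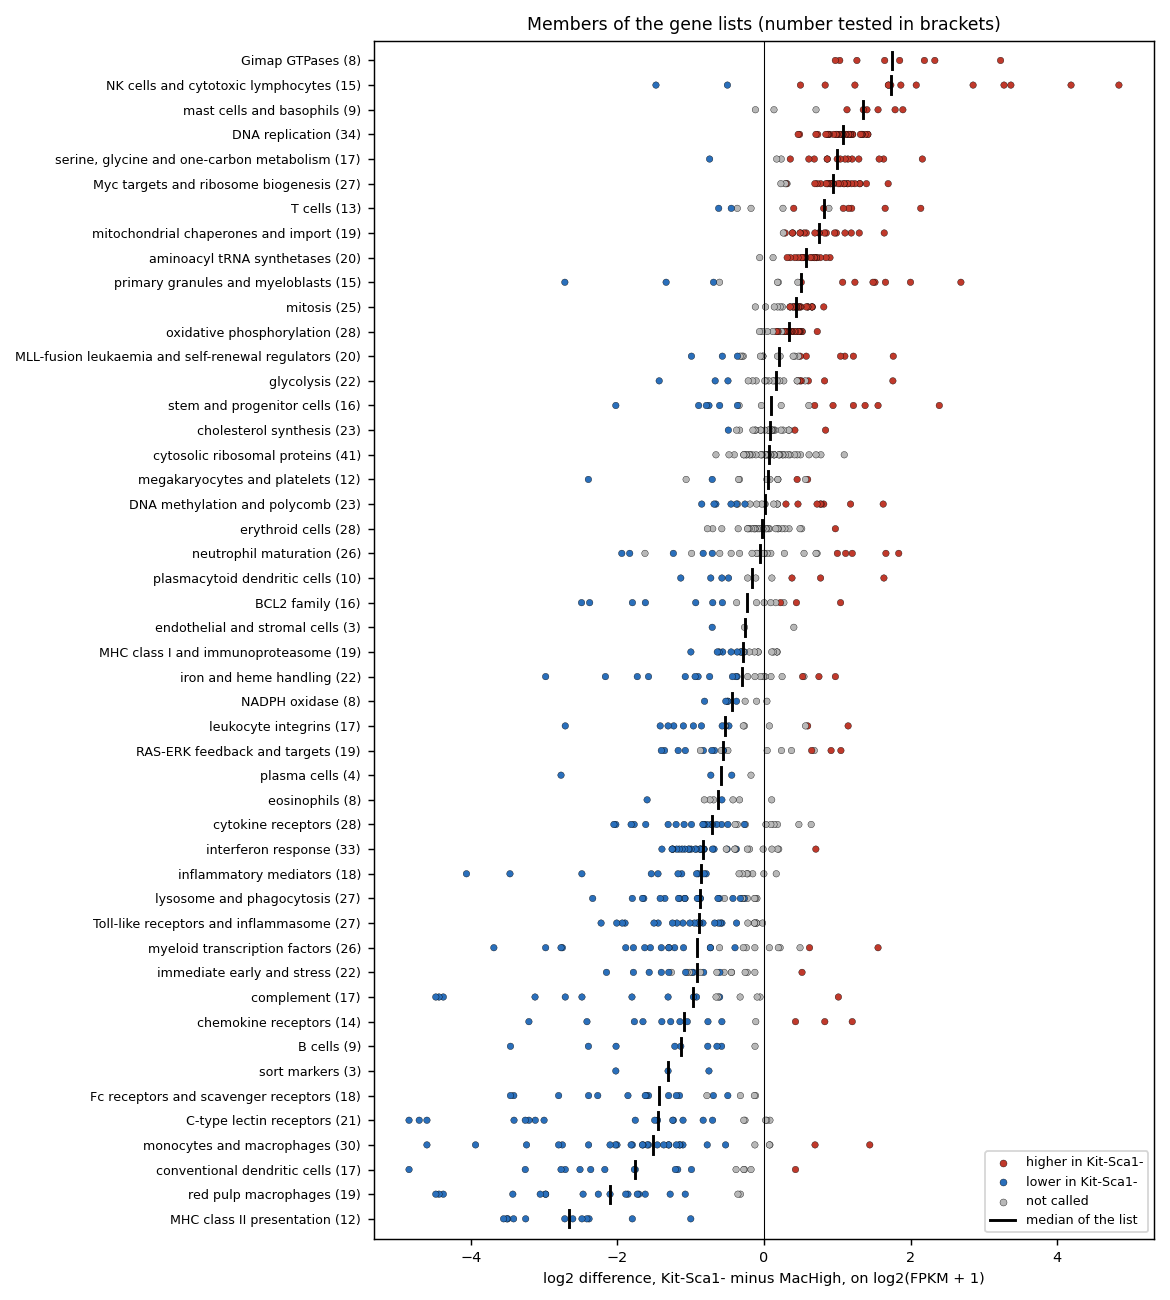
Log2 difference between Kit-Sca1- and MacHigh cells for each member of 48 gene lists, with 1 point per gene and the number of genes tested in brackets. Red points were called higher, blue points lower and grey points were not called, and the black line is the median of the list. MHC class II presentation has the lowest median (-2.66) and the Gimap GTPases the highest (1.75).

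Genes of early myeloid cells were higher in part. Cd34, a surface sialomucin of progenitors, was at 78.9, 88.1, 63.3, 66.5 and 50.3 FPKM in Kit-Sca1- libraries, against 16.7, 10.5, 9.67, 14.2 and 11.1 FPKM in MacHigh libraries (2.39 ± 0.27, adjusted p = 3.5e-07). Of 16 stem and progenitor cell genes, 6 were higher and 6 lower (median 0.10), and with quantile normalization or a common FPKM total 6 were higher and 4 lower. Kit and Ly6a, genes of the sorted proteins, are among the 6 that were lower. Sox4 (2.35 ± 0.903 FPKM in Kit-Sca1- against 0.407 ± 0.161 FPKM in MacHigh) and Egfl7 (1.38 ± 0.29) were among those that were higher. Genes of primary granules, which neutrophil precursors fill with proteases at the promyelocyte stage, were higher in 8 of 15 and lower in 3 (median 0.51). Ctsg, cathepsin G (chromosome 14, 56099885 to 56102574), was at 694, 748, 513, 584 and 475 FPKM in Kit-Sca1- libraries, against 129, 82.2, 98.1, 102 and 60.3 FPKM in MacHigh libraries (2.69 ± 0.27, adjusted p = 8.76e-08). Prtn3, proteinase 3, was at 548 ± 56.6 FPKM in Kit-Sca1- and 141 ± 44.5 FPKM in MacHigh libraries (2.00 ± 0.33), and Mpo, myeloperoxidase, at 311 ± 85 FPKM in Kit-Sca1- and 111 ± 29.8 FPKM in MacHigh libraries (1.49 ± 0.33). Elane, neutrophil elastase, was higher with less margin (1.07 ± 0.39, adjusted p = 0.029), and its call was lost with no filter and without Kit-Sca1- replicate 3 or MacHigh replicate 2, 4 or 5. The receptor-like Sirpb1a (-2.72 ± 0.25) and the ficolin Fcnb (-1.33 ± 0.41) were lower. The call of Fcnb was lost in the 8 libraries with shared prefixes, fitted with the prefix as a block (adjusted p = 0.0907), a setting added after the data were seen.

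Regulators of MLL-fusion leukaemia and of self-renewal did not move as a group. Of 20 tested, 6 were higher and 3 lower (median 0.20). Myb, a transcription factor on which MLL-AF9 leukaemia depends, was at 78.4, 84.2, 67.5, 74.1 and 62.8 FPKM in Kit-Sca1- libraries, against 24.4, 18.7, 29.9, 21 and 13.5 FPKM in MacHigh libraries (1.76 ± 0.18, adjusted p = 1.41e-07). Cdk6, a kinase that such cells require, was at 50.3, 65.1, 53.7, 33.7 and 27.7 FPKM in Kit-Sca1- libraries, against 35, 21.6, 13.1, 22.5 and 13.9 FPKM in MacHigh libraries, and the groups overlapped (1.10 ± 0.30, adjusted p = 0.00371). Hoxa9, a direct target of MLL fusions, was at 5.69 ± 1.76 FPKM in Kit-Sca1- and 3.99 ± 0.98 FPKM in MacHigh libraries and did not pass (0.40 ± 0.28, adjusted p = 0.246), but did with sample name prefixes as a block (adjusted p = 0.00774). Its cofactor Meis1 was at 5.78 ± 0.794 FPKM in Kit-Sca1- and 7.75 ± 1.32 FPKM in MacHigh libraries (-0.36 ± 0.14, adjusted p = 0.0303). That call was lost under all 3 other scalings and without Kit-Sca1- replicate 1, 2 or 4 or MacHigh replicate 2 or 5. Jmjd1c, a histone demethylase of MLL-AF9 leukaemia, was lower (-0.57 ± 0.09).

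Neutrophil maturation genes went both ways, with 5 of 26 higher and 5 lower (median -0.05, above 0 under each of the 3 other scalings). The most abundant did not differ. S100a8, a calprotectin subunit, was at 15294, 20530, 23159, 10011 and 20486 FPKM in Kit-Sca1- libraries, against 21181, 9776, 38602, 17057 and 11049 FPKM in MacHigh libraries, with wide overlap (adjusted p = 0.996). Retnlg, a secreted resistin-like protein of late neutrophils, was at 1928, 1808, 1296, 730 and 1035 FPKM in Kit-Sca1- libraries, against 353, 395, 296, 399 and 351 FPKM in MacHigh libraries (1.84 ± 0.39, adjusted p = 0.000508). Mmp8, neutrophil collagenase, was higher too (1.66 ± 0.42). The lectins Clec4d (-1.24 ± 0.22) and Clec4e (-0.83 ± 0.21) and the protease inhibitor Stfa3 (-1.94 ± 0.59), a member of a family of near-identical genes and therefore uncertain, were lower. Camp, a peptide of secondary granules, was at 2011 ± 923 FPKM in Kit-Sca1- and 3288 ± 1957 FPKM in MacHigh libraries (adjusted p = 0.3).

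Members of the BCL2 family, which set the threshold of cell death, changed in opposite directions. Bcl2 was at 24.6, 25.4, 19.4, 24.8 and 18.2 FPKM in Kit-Sca1- libraries, against 11.2, 10.8, 8.33, 10 and 11.4 FPKM in MacHigh libraries (1.04 ± 0.17, adjusted p = 2.26e-05). Mcl1, another protein that protects from death, was at 167, 129, 183, 122 and 192 FPKM in Kit-Sca1- libraries, against 305, 295, 275, 285 and 337 FPKM in MacHigh libraries (-0.93 ± 0.13, adjusted p = 6.35e-06). Neither gene had overlapping groups. Of 16 genes in the family, 3 were higher and 7 lower (median -0.24). Bcl2a1b (-2.49 ± 0.23) and Bcl2a1d (-2.38 ± 0.23) were the lowest, and being near-identical copies their single values are uncertain.

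Most markers of NK cells, and 7 of 13 of T cells and 6 of 9 of mast cells and basophils, were higher in Kit-Sca1- cells. Of 15 genes of NK cells and cytotoxic lymphocytes tested, 13 were higher and 2 lower (median 1.73), and they gave 5 of the 12 largest rises. Gzma, granzyme A, a protease of cytotoxic granules, was at 18, 35.6, 51.9, 111 and 55.8 FPKM in Kit-Sca1- libraries, against 0.262, 0.641, 0.951, 0.177 and 1.54 FPKM in MacHigh libraries (4.84 ± 0.48, adjusted p = 7.07e-08). The Kit-Sca1- libraries spread widely, with replicate 4 highest, and all lay above every MacHigh library. Ccl5, a chemokine of cytotoxic cells, was at 45.6, 48.2, 66.2, 173 and 105 FPKM in Kit-Sca1- libraries, against 2.19, 3.7, 2.78, 2.49 and 6.1 FPKM in MacHigh libraries (4.19 ± 0.42). Ncr1, the activating NK receptor NKp46, was at 4.42, 8.54, 13, 21.5 and 13.7 FPKM in Kit-Sca1- libraries, against 0.0927, 0.198, 0.118, 0.143 and 0.217 FPKM in MacHigh libraries (3.37 ± 0.32). Il2rb, a chain of the receptors for interleukins 2 and 15 (3.27 ± 0.23), the pore protein perforin, Prf1 (2.85 ± 0.30), and the transcription factor Eomes (1.87 ± 0.18) rose too. The 2 that were lower were the NK lectins Klrd1 (9.96 ± 3.03 FPKM in Kit-Sca1- against 29.6 ± 10.2 FPKM in MacHigh, -1.47 ± 0.28) and Klrk1 (-0.50 ± 0.21, adjusted p = 0.0485), and the call of Klrk1 was lost under all 3 other scalings (adjusted p = 0.0726 to 0.122), with a pseudocount of 0.1, with no filter and without any of 7 of the 10 libraries (Kit-Sca1- replicate 1, 2, 3 or 5 or MacHigh replicate 1, 4 or 5). Gimap genes, small GTPases of lymphocytes, were all 8 higher in a list put together after the values had been seen (median 1.75), with Gimap4 at 11.6 ± 3.88 FPKM in Kit-Sca1- and 0.302 ± 0.0991 FPKM in MacHigh libraries (3.23 ± 0.23).

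Of 13 T cell genes tested, 7 were higher and 2 lower (median 0.81). Cd3d, a chain of the T cell receptor complex, was at 11.6, 10.9, 19.5, 6.26 and 13.3 FPKM in Kit-Sca1- libraries, against 4.83, 1.16, 5.6, 4.48 and 1.29 FPKM in MacHigh libraries (1.65 ± 0.40). Other defining T cell genes were near 0 in both groups and fell below the filter: Cd3e averaged 0.0379 FPKM in Kit-Sca1- and 0.0103 FPKM in MacHigh, Cd3g 0.4 FPKM in Kit-Sca1- and 0.00994 FPKM in MacHigh, and Bcl11b 0.0157 FPKM in Kit-Sca1- and 0.00182 FPKM in MacHigh libraries. The summed level was 133 to 443 FPKM in Kit-Sca1- and 43.4 to 73.6 FPKM in MacHigh libraries for the NK list, and 32.5 to 42.2 FPKM in Kit-Sca1- and 15 to 16.5 FPKM in MacHigh libraries for the T cell list. Of 9 mast cell and basophil genes, 6 were higher and none lower (median 1.35), with sums of 161 to 243 FPKM in Kit-Sca1- and 81 to 103 FPKM in MacHigh libraries. Prss34, a protease of mouse basophils, was at 25.6, 13.9, 7.88, 24.4 and 18.5 FPKM in Kit-Sca1- libraries, against 5.84, 2.33, 3.12, 5.63 and 2.95 FPKM in MacHigh libraries (1.89 ± 0.26). Ms4a2, the beta chain of the high affinity IgE receptor, was higher (1.79 ± 0.29), and its alpha chain Fcer1a averaged 0.627 FPKM in Kit-Sca1- and 0.181 FPKM in MacHigh libraries, below the filter. The mast cell chymase Cma1 (1.40 ± 0.19) and Cpa3 (1.35 ± 0.27) were higher too, while the mast cell proteases Mcpt4 and Tpsb2 were at or near 0 in both groups.

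Of 9 B cell genes tested, 8 were lower and none higher (median -1.14), Cd22 by 2.40 ± 0.38, with sums of 29.8 to 36.1 FPKM in Kit-Sca1- and 61 to 118 FPKM in MacHigh libraries. The defining B cell genes Pax5 and Ebf1 were at 0.001 FPKM in both groups. Erythroid genes were higher in 1 of 28, Tfrc, and lower in none. Their sums were 92.6 to 158 FPKM in Kit-Sca1- and 81.1 to 229 FPKM in MacHigh libraries, where replicate 4 held the most, with the hemoglobin gene Hba-a1 at 26.7 FPKM. Of 12 megakaryocyte and platelet genes 2 were higher and 2 lower, of 8 eosinophil genes 2 were lower, of 10 plasmacytoid dendritic cell genes 3 were higher and 4 lower, of 4 plasma cell genes 3 were lower, and of 3 endothelial and stromal genes 1 was lower. The red pulp macrophage list summed to 214 to 412 FPKM in Kit-Sca1- and 1052 to 1748 FPKM in MacHigh libraries, and the dendritic cell list to 106 to 189 FPKM in Kit-Sca1- and 448 to 887 FPKM in MacHigh libraries. The part of admixed cells of these types in the differences of the genes named was not tested.

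**Figure D4:**
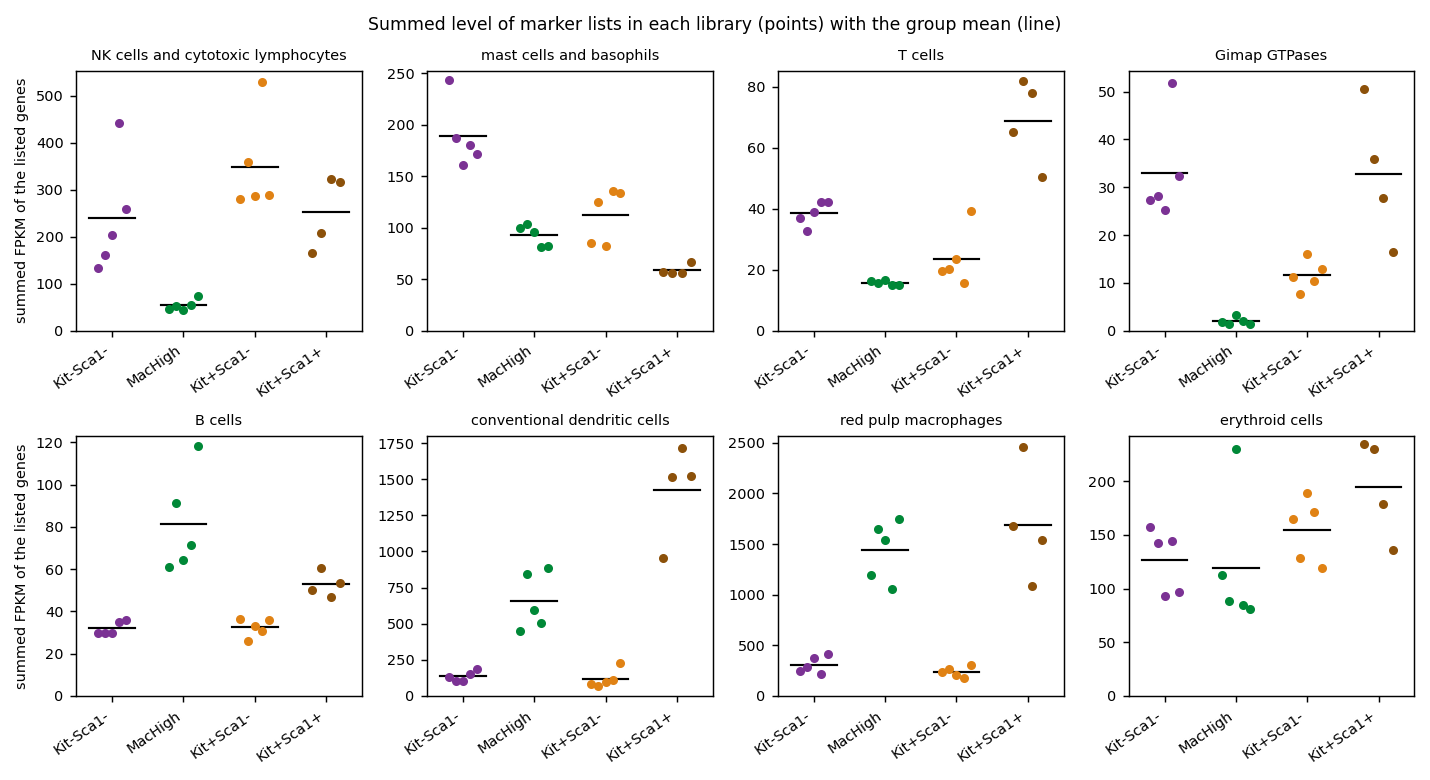
Summed FPKM of 8 lists of cell type markers in each library, with a line at the group mean, in Kit-Sca1-, MacHigh, Kit+Sca1- and Kit+Sca1+ cells from left to right. NK sums are 133 to 443 FPKM in Kit-Sca1- and 43.4 to 73.6 FPKM in MacHigh libraries, red pulp macrophage sums lie the other way, and a single MacHigh library holds the most erythroid transcripts of its group.

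The same lists were set against the other MacLow cells, in comparisons that share the Kit-Sca1- libraries with the one above. Monocyte and macrophage genes were higher in Kit-Sca1- than in Kit+Sca1- cells in 23 of 31 and lower in none, where 26% of 11564 genes were higher and 24% lower. Mitosis genes were lower in 16 of 25 (median -0.41). Replication genes were lower in 10 of 34 (median -0.24), which is near the share over all genes. None was higher in either list. Primary granule genes were lower in 8 of the 11 that could be compared and higher in 1, and Myc targets and ribosome biogenesis genes were higher in 23 of 27. NK genes were higher in 14 of 15 and class II genes in 1 of 12. The summed NK list was nonetheless at 133 to 443 FPKM in Kit-Sca1- and 281 to 530 FPKM in Kit+Sca1- libraries. Most of the sum in Kit+Sca1- libraries was Nkg7, a gene of cytotoxic granules that is also in the primary granule list, at 27 FPKM on average in Kit-Sca1- and 321 FPKM in Kit+Sca1- libraries. Against Kit+Sca1+ cells, where 23.3% of 11599 genes were higher and 21.8% lower, neutrophil maturation genes were higher in 22 of 27, replication genes in 24 of 34 and mast cell and basophil genes in 9 of 9. Class II genes were lower than in Kit+Sca1+ cells in 11 of 12 and red pulp macrophage genes in 17 of 19. Lymphocyte lists did not set Kit-Sca1- apart from Kit+Sca1+ cells in the same way. There, NK genes were higher in 6 of 15 and lower in 2 (median 0.32). T cell genes were higher in 2 of 13 and lower in 6, and Gimap genes higher in 3 of 8 and lower in 2.

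Set against all 3 other sorted groups, Kit-Sca1- cells had 631 genes that were higher than in each (5.46% of 11562) and 320 that were lower than in each (2.77%). The values of 165 and 117 of them did not overlap with any other sorted library. The first count was 227 after scaling all libraries to a common FPKM total, and the second was 530 with the prefix as a block. By the rule for named genes, the highest were Ccl5, Mcam, Prss34, Retnlg and Mmp8. Mcam, the adhesion molecule CD146, averaged 7.29 ± 1.87 FPKM in Kit-Sca1- libraries, against 1.23 ± 0.679 FPKM in MacHigh, 0.408 FPKM in Kit+Sca1- and 0.409 FPKM in Kit+Sca1+ libraries, and its smallest log2 difference was 1.91. Retnlg averaged 1359.5 FPKM in Kit-Sca1- libraries, against 359 FPKM in MacHigh, 86.6 FPKM in Kit+Sca1- and 16 FPKM in Kit+Sca1+ libraries. The lowest were Mgl2, Kit, Marcksl1, Marveld1 and Zfp395. Mgl2, a lectin that binds galactose, was at 2.96, 2.08, 4.04, 2.1 and 3.29 FPKM in Kit-Sca1- libraries, against 17.6, 74.8, 19.6, 52.1 and 34.4 FPKM in MacHigh libraries, and averaged 53.2 FPKM in Kit+Sca1- and 19.9 FPKM in Kit+Sca1+ libraries. Its near copy Clec10a was higher, not lower, in Kit-Sca1- than in Kit+Sca1- cells (1.32 ± 0.24). Reads may have been split between these copies, so the place of Mgl2 here is uncertain. Marcksl1, a regulator of actin and a substrate of protein kinase C, was at 20.5 ± 4.57 FPKM in Kit-Sca1- and 68.6 ± 14.3 FPKM in MacHigh libraries (-1.69 ± 0.20).

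**Figure D5:**
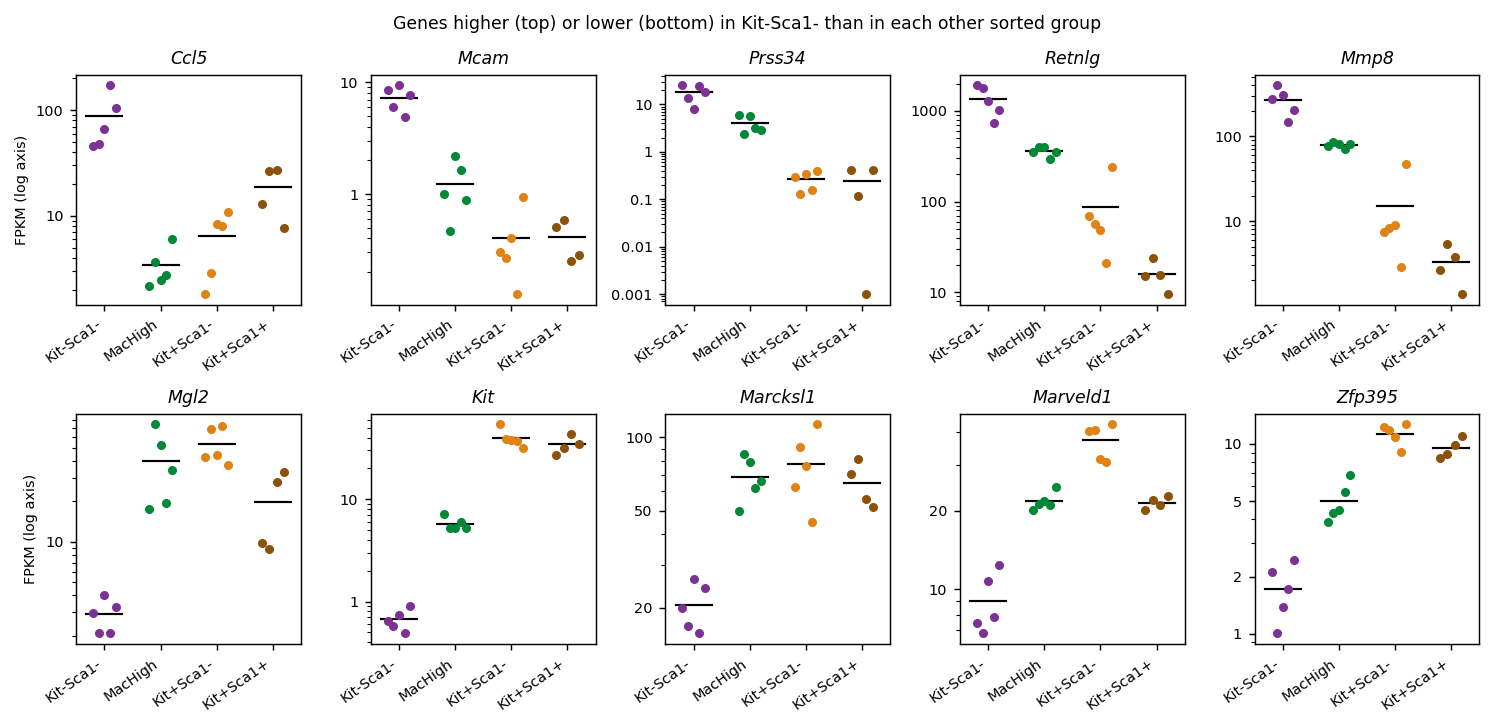
FPKM on log axes of the 5 genes named as higher (top) and the 5 named as lower (bottom) in Kit-Sca1- cells than in each other sorted group, with 1 point per library and a line at the group mean, in Kit-Sca1-, MacHigh, Kit+Sca1- and Kit+Sca1+ cells from left to right. Every Kit-Sca1- point lies outside the range of the other 3 groups, and for Kit the MacHigh libraries (5.22 to 7.17 FPKM) lie between Kit-Sca1- and the Kit+ groups.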

How the data were processed

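RNA was sequenced in 24 libraries of leukaemia cells, and groups and replicates were taken from the sample titles. The authors deposited 1 table of FPKM values with 23361 rows, and 0 value columns were left without a sample. Per the submitters' processing notes, TopHat2 2.0.4, Cuffdiff and the mouse genome mm10 were used. The annotation, the strand setting and the normalization between libraries are not given in the sources used here. A row at 0.001 in every library of a group and at 5 FPKM or more in every library of another was set to missing in the first.

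Values were analysed as log2(FPKM + 1), and rows that reached 1 FPKM in 4 or more libraries were kept (11599, of which 11597 gave this comparison). limma 3.58.1 (R 4.3.3) estimated the group means from all 24 libraries, letting the prior variance follow the mean level, and a gene was called at a Benjamini-Hochberg adjusted p under 0.05. The fit was also run on simulated data with independent libraries and few changed genes. Many genes differ in these data and libraries share prefixes, so that run does not bear on the calls made here. The 3 sort marker genes were tested with exact permutation tests. Samples of both groups share 4 name prefixes, and deviations from the group means correlated at 0.146 to 0.347 within these 4 pairs (mean 0.263) and at -0.336 to 0.245 over 21 other pairs (mean -0.05). Pairs by title number gave -0.005 to 0.347 (5 pairs, mean 0.16). The prefix was taken as the pairing since each of its pairs lay above 0.1, although the ranges overlap and the labels do not say what it marks. The main limma fit held no term for this pairing, and fits with the prefix as a block are among the alternatives. RefSeq (GRCm38.p6) held a gene for 23225 of the symbols (99.4%) and gave the coordinates. Figures were drawn with matplotlib 3.10.9.

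The gene lists (42, and 6 added after values were seen) and the members were chosen with earlier results of these data known. Named genes were the sort markers, the 12 largest rises and falls without overlap and at 5 FPKM or more in the higher group (small RNA, Gm and Rik rows left out), the 2 called members of each list with the largest moderated statistic in each direction, the 5 genes of each direction furthest from all other sorted groups, and further members chosen after their values were seen. Alternatives covered the pseudocount, filter, scaling, samples fitted, blocks, variance model and each library left out.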

Additional observations from a re-analysis of the deposited data

Results flagged for a closer look

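In 426 groups of 5 values examined for the genes named by the rule or in the text, 9 held a library that stood far from the other 4. Chance flags about 1 in 20 groups. The number given is the gap to the nearest library as a share of the whole range, both taken on log2(FPKM + 1).

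In Kit-Sca1- libraries, H2-DMb1 of the class II loading complex was highest in replicate 5, at 30.2 FPKM against 19 to 20.2 FPKM in the others (0.866). Npm1 was lowest in replicate 5, at 113 FPKM against 166 to 188 FPKM (0.754). In replicate 4, Chi3l3, a chitinase-like protein of myeloid cells, was lowest at 222 FPKM against 597 to 708 FPKM (0.853), and Fcgr4 was lowest at 14.9 FPKM against 30.1 to 38.3 FPKM (0.741). The replication gene Gins4 was highest in replicate 4, at 45.1 FPKM against 37.8 to 39.4 FPKM (0.758).

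In MacHigh libraries, Cma1, a mast cell chymase, was highest in replicate 1, at 0.336 FPKM against 0.0686 to 0.0904 FPKM (0.909), below the level of the filter. Bcl2a1b was lowest in replicate 3, at 6.66 FPKM against 11.8 to 13.5 FPKM (0.796). Gins3 was highest in replicate 3, at 8.27 FPKM against 5.69 to 6.01 FPKM (0.858). Rps25 was highest in replicate 4, at 126 FPKM against 4.92 to 9.41 FPKM (0.816).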

How the results depend on the processing

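Of 213 named genes, 183 kept their direction and their side of the threshold in each of the 23 other settings that gave a value, and 30 did not in at least 1. The genes higher in Kit-Sca1- than MacHigh cells numbered 2460 to 2943 and those lower 2698 to 3070 when each library was left out in turn, and 2564 to 3320 and 2165 to 3697 under the other settings. Genes higher than in each other sorted group numbered 422 to 752 without single libraries and 227 with the same FPKM sum, against 631. Genes lower than in each numbered 235 to 353 without single libraries and 530 with the prefix as a replicate block, against 320. Itgam, Kit and Ly6a differed by -1.35, -2.03 and -0.82 with the prefix as a block, where 4 pairs allow no p below 0.125, and by -1.31, -2.02 and -0.75 with the title number as a block, where 5 pairs allow no p below 0.0625. With the prefix as a block 3320 genes were higher and 3697 lower, and of the named genes the call of Ly6c1 was lost while Hoxa9, Fos and Itgal (adjusted p = 0.00835) were gained. Directions that reversed belonged to genes that were not called. S100a8 was at 0.0998 with the same FPKM sum, 0.4202 with quantile normalization, 0.0471 with median centring, 0.0815 with library weights and -0.2067 to 0.2886 without single libraries. Psmb8 was at 0.0225 with the same FPKM sum, 0.0079 with quantile normalization and -0.1438 to 0.0123 without single libraries, and Pycard at 0.0023 with the same FPKM sum. Clec12a was at -0.0118 with the prefix as a block, -0.0696 with the block and only shared prefixes, a setting added after the data were seen, and -0.026 to 0.0897 without single libraries. Csf3r was at -0.1092 to 0.2621 and Irf8 at -0.0135 to 0.1682 without single libraries. The cause was not tested. Depth is unknown in reads, so the counting error of low FPKM values cannot be given.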
